A study of Mus musculus with 18 samples.

Results

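The circRNAs described here are made from 5 host genes with roles at the synapse or in neuronal excitability, and each is measured by 1 array probe. They are ASCRP4006509 (Rims1, mmu_circRNA_007113, chromosome 1), ASCRP4010646 (Anks1b, mmu_circRNA_017958, chromosome 10), ASCRP4000447 (Arhgap32, mmu_circRNA_43940, chromosome 9), ASCRP4001973 (Dtnb, mmu_circRNA_006216, chromosome 12) and ASCRP4003432 (Scn2a1, mmu_circRNA_33707, chromosome 2). All are exonic circRNAs, and they are 5 of the 14236 circRNA probes on the array. They were selected on the m6A level in these same samples: each is listed by the study for a large change in level in at least 1 of the 3 comparisons between the groups. Rims1 was chosen by 3d vs. sham, Anks1b and Arhgap32 by 3d vs. sham and by 7d vs. 3d, Dtnb by 7d vs. sham, and Scn2a1 by 7d vs. 3d. In the comparisons that chose a circRNA, its values are a description and carry no test, also where it is said below to be called. The other comparisons of that circRNA share arrays with the one that chose it, so their p-values are not independent of the choice.

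A circRNA is formed when the spliceosome joins the end of an exon back to an upstream start, which leaves a ring without free ends that exonucleases such as RNase R do not degrade. Brain is rich in circRNAs, and many of them come from genes for synaptic proteins, where their amount can change without a like change in the linear mRNA. m6A, a methyl group on adenosine, is set by writer enzymes, removed by erasers and bound by reader proteins, and on RNA it is known for its part in splicing, translation and decay.

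Cortex around the infarct was collected from 10-week C57BL/6J mice 3 days (3d group) and 7 days (7d group) after distal middle cerebral artery occlusion (MCAO), a permanent block of a surface branch of that artery which the study followed with a short occlusion of both common carotid arteries. Sham mice of the same strain and age had the operation but no MCAO, and the day of their sampling was not given in the sources used here. Each group had 3 biological replicates by the labels, named replicate 1 to 3. RNA bound by an anti-m6A antibody (IP) was labelled with Cy5 and the RNA left in the supernatant (Sup) with Cy3, after RNase R digestion, and both fractions of a replicate were hybridized to 1 array, which makes 9 arrays. The question was how the methylation and the amount of circRNAs in this cortex differed between the groups.

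Intensities of IP and Sup are given after background removal and scaling on spike-in RNA, in arbitrary units. The m6A level is the share of IP in IP plus Sup, in percent, and expression is that sum. Both hold an offset of 50 that the background step added to each channel before scaling. On the array of sham replicate 3, for example, the lowest IP after background removal was 50.5 and the median 71.5. For dim probes much of the IP is thus the offset, and their level is not to be read as a methylated share. A circRNA was called where the fold change was above 1.5 and the unadjusted P of limma below 0.05. Adjusted p-values are from limma with Benjamini-Hochberg adjustment over the 12211 circRNA probes tested. All 5 circRNAs passed the filter on dim probes and had IP and Sup well above background on all 9 arrays, so none of them passed it through 1 group alone. The level of 1 probe was not set against that of another.

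The 3d and 7d arrays carried 1 scan time and the sham arrays another, on separate slides. What separates a group from sham and what separates the scans therefore cannot be told apart, whereas 7d vs. 3d lies within 1 scan. The 3d arrays were all in row 1 of their slide and the 7d arrays all in row 2, so that 7d vs. 3d cannot be told apart from the row. The array of 7d replicate 3 stood apart from the rest. Its median m6A level over all tested circRNAs was 42.3%, and those of the other 8 arrays lay between 32.7% and 36.3%. Over all circRNA probes its median scaled IP was 116, against 56.1 and 58.4 on the arrays of 7d replicates 1 and 2. Its raw median IP of 44 was like theirs, 42 and 45. After background removal the medians were 159 on this array and 70.5 and 72.1 on theirs, and the factors of the scaling were 0.731, 0.795 and 0.810, so the background step lifted its dim probes. The brighter probe of the Dtnb circRNA stayed alike. Its raw IP of 583.5 on this array became 472, beside 604 and 548 that became 504 and 466 on the arrays of 7d replicates 1 and 2. In tissue of mixed cells, fewer cells of a type and less circRNA in each of them cannot be told apart. For 17 markers of brain cell types an mRNA probe was sought by RefSeq name, which 46 of the 50 mRNA probes had. The marker Scn2a1 is named Scn2a in RefSeq, so a probe of it would have been missed. The search gave 1 marker, the myelin gene Mbp. Its expression was 156 ± 17.7 (SD, n = 3) in the sham group, 182 ± 17.5 at 3 days and 214 ± 73.2 at 7 days. The last mean was carried by 7d replicate 3, at 298, and was 172 without it, below that of the 3d group. The Mbp signal was dim: the median expression of all circRNAs tested was 182 to 187 on the sham arrays. On the array of 7d replicate 3 that median was 286. Mbp mRNA is also linear, and the RNase R digestion was meant to remove linear RNA. Its values were therefore not read as a measure of a cell type, and the part of Mbp in the results was not tested.

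**Figure D1:**
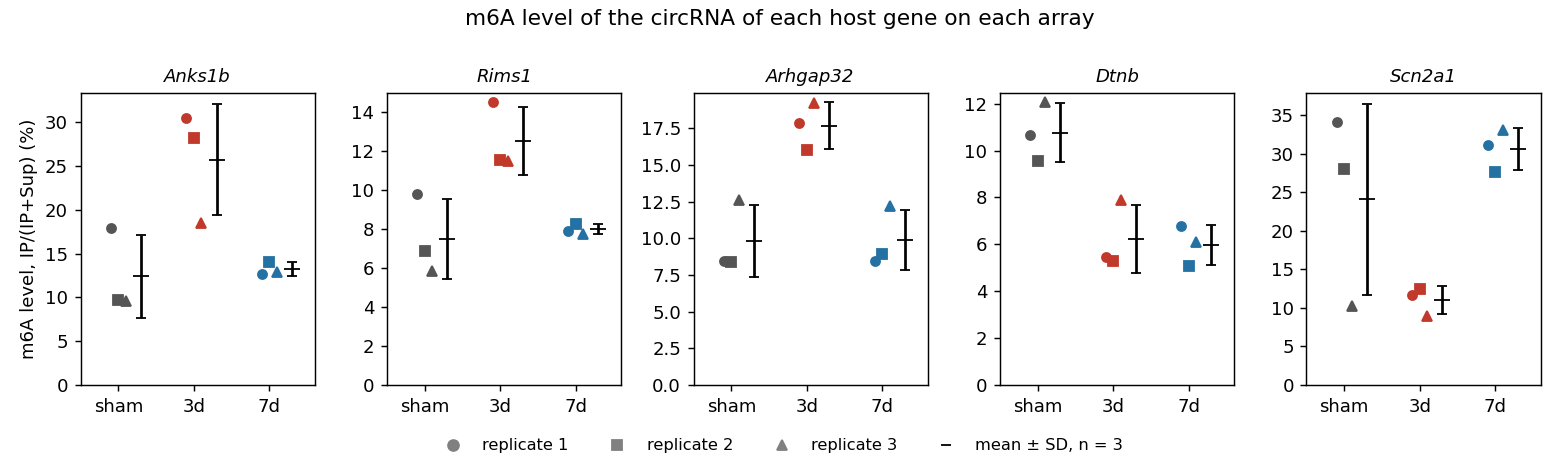
The m6A level of each circRNA (IP as a percentage of IP plus Sup, axis from 0, a scale of its own in each panel) is plotted for the 9 arrays by group, with the mean ± SD of 3 arrays beside the points. The Rims1, Anks1b and Arhgap32 circRNAs are highest in the 3d group, the Dtnb circRNA is highest in the sham group, and the Scn2a1 circRNA is low in the 3d group and on the array of sham replicate 3.

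Rims1 encodes a scaffold of the presynaptic active zone that tethers calcium channels and prepares vesicles for release. The level of its circRNA was 9.79%, 6.90% and 5.83% in sham replicates 1 to 3, 14.5%, 11.5% and 11.5% in the 3d replicates, and 7.92%, 8.28% and 7.77% in the 7d replicates. The 3d arrays were the 3 highest of the 9, and the 7d arrays lay inside the range of the sham arrays. The mean level was 7.50% ± 2.05 (SD, n = 3) in the sham group, 12.5% ± 1.74 at 3 days and 7.99% ± 0.262 at 7 days. The log2 change in level from sham to 3d, which chose this circRNA, was 0.76 (standard error 0.17). The level in the 7d group was lower than in the 3d group, with a log2 change of -0.64 (standard error 0.17) and no overlap of the arrays, a description since the same 3d arrays chose the circRNA. Without 3d replicate 1 this change was -0.53, under the fold threshold. From sham to 7d it was 0.12 (adjusted p = 0.575), and its sign turned with all spike-in probes, with each array centred on its median circRNA, with the processed or deposited values and without sham replicate 3.

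Both fractions were measured for the same molecule on the same array, so the level can be followed back to them. The scaled Sup of the Rims1 circRNA was 1934, 1742 and 2196 in the sham replicates, 1531, 1573 and 892 in the 3d replicates, and 1799, 2073 and 2051 in the 7d replicates. Every 3d array lay below every sham and every 7d array, and 3d replicate 3 was the lowest. Its scaled IP was 210, 129 and 136 in the sham replicates, 260, 205 and 116 in the 3d replicates, and 155, 187 and 173 in the 7d replicates, so the IP of the groups overlapped. The log2 change of Sup was -0.59 in 3d vs. sham and 0.61 in 7d vs. 3d (adjusted p = 0.0691), and both were called. Without 3d replicate 3 they were -0.33 and 0.34 and were not called, the former was also lost as a call when sham replicate 3 was left out, at -0.51, and without 7d replicate 3 the latter was 0.58 and was not called. For IP the log2 changes were 0.25 in 3d vs. sham and -0.10 in 7d vs. 3d (adjusted p = 0.861). With all arrays the higher level at 3 days thus went more with a lower Sup than with a higher IP, but this rests on single arrays: the change of IP in 3d vs. sham was 0.58 and the larger of the pair without 3d replicate 3, and it was -0.00085 without 3d replicate 1. Expression was 2115 ± 232 (SD, n = 3) in the sham group, 1526 ± 449 at 3 days and 2146 ± 167 at 7 days. It was lower on each 3d array than on any sham or 7d array, with a log2 change of 0.54 in 7d vs. 3d (adjusted p = 0.256) that was under the fold threshold. It was called in 8 of 25 alternatives and was 0.26 without 3d replicate 3.

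Anks1b encodes a scaffold protein of the postsynaptic density. The level of its circRNA was 17.9%, 9.74% and 9.56% in the sham replicates, 30.5%, 28.2% and 18.5% in the 3d replicates, and 12.6%, 14.1% and 12.9% in the 7d replicates. The 3d arrays were again the 3 highest, but 3d replicate 3 was only a little above sham replicate 1, which was higher than any 7d array. The mean level was 12.4% ± 4.75 (SD, n = 3) in the sham group, 25.7% ± 6.38 at 3 days and 13.2% ± 0.768 at 7 days. The log2 change was 1.09 (standard error 0.25) in 3d vs. sham and -0.93 in 7d vs. 3d, the comparisons that chose it. For 7d vs. sham, which did not choose it, the log2 change was 0.16 (standard error 0.25, adjusted p = 0.630), which turned sign with the processed or deposited values and with each array centred on its median circRNA.

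The scaled IP of the Anks1b circRNA was 350, 157 and 107 in the sham replicates, 649, 445 and 173 in the 3d replicates, and 212, 293 and 260 in the 7d replicates. Replicate 1 was the highest and replicate 3 the lowest of its group in both the sham and the 3d group, and the IP of 3d replicate 3 lay inside the sham range. Its scaled Sup was 1607, 1457 and 1017 in the sham replicates, 1481, 1133 and 763 in the 3d replicates, and 1463, 1788 and 1750 in the 7d replicates. The Sup of the groups overlapped in each comparison. The log2 change of IP was 1.03 in 3d vs. sham and -0.54 in 7d vs. 3d, and that of Sup was -0.30 and 0.61. Single arrays moved these values: with arrays left out the change of IP ran from 0.62 to 1.57 in 3d vs. sham and from -1.09 to -0.14 in 7d vs. 3d. Sup in 7d vs. 3d was not called without 3d replicate 3, at 0.36, or without 7d replicate 3, at 0.57. The coefficient of variation of IP was 62.5% for sham and 56.6% for 3d, against 38.3% and 24.8% for the level, and in these groups the arrays with a high IP also had a high Sup. Expression was 1565 ± 418 (SD, n = 3), 1548 ± 598 and 1922 ± 217 in the sham, 3d and 7d groups. In expression the log2 change was -0.06 in 3d vs. sham, 0.33 in 7d vs. sham (adjusted p = 0.429) and 0.38 in 7d vs. 3d, and none was called. The first turned to 0.12 if sham replicate 1 was left out and to 0.27 if 3d replicate 3 was, and the last was 0.06 without 3d replicate 3 and was called without 3d replicate 1, at 0.65.

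Arhgap32 encodes a protein that takes part in the shaping of dendritic spines. The level of its circRNA was 8.44%, 8.36% and 12.6% in the sham replicates, 17.8%, 16.0% and 19.2% in the 3d replicates, and 8.45%, 8.91% and 12.2% in the 7d replicates. The 3d arrays lay above all others, and the sham and 7d arrays covered almost the same range, each with replicate 3 as the highest. The mean level was 9.81% ± 2.44 (SD, n = 3) in the sham group, 17.7% ± 1.62 at 3 days and 9.86% ± 2.05 at 7 days. The log2 change was 0.87 (standard error 0.18) in 3d vs. sham and -0.86 in 7d vs. 3d, both of which chose it, and 0.01 (adjusted p = 0.952) in 7d vs. sham. The sign of the last value turned with each of these scalings, down to -0.26 with the processed signals. It also turned with all spike-in probes, with loess and quantile normalization and with no background correction.

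The IP of the Arhgap32 circRNA was close to the floor. Its raw median pixel intensity ran from 42 to 69 over the 9 arrays, over a local background between 15.5 and 24.5. The background step and its offset therefore bear on this level, which is not to be read as a methylated share. The scaled IP was 77.7, 61.6 and 55.0 in the sham replicates, 79.9, 73.3 and 58.1 in the 3d replicates, and 66.8, 68.1 and 124 in the 7d replicates. Apart from 7d replicate 3 the groups covered the same range, and the raw IP of that array was 68, beside 69 on the array of sham replicate 1, so its scaled value holds the lift of the background step. Without it the log2 change in level was -0.15 in 7d vs. sham, and 7d vs. 3d was called as before. Its scaled Sup was 843, 675 and 380 in the sham replicates, 368, 384 and 244 in the 3d replicates, and 724, 696 and 893 in the 7d replicates. All 3d arrays lay below all 7d arrays, while sham replicate 3 was low and fell between the 3d arrays. The log2 change of Sup was -0.88 in 3d vs. sham and 1.23 in 7d vs. 3d, and that of IP was 0.12 and 0.24. The former turned to -0.07 with centring, -0.05 with loess and quantile normalization and -0.04 with the processed or deposited values. The latter turned to -0.01 with centring and -0.05 without 7d replicate 3. Expression was 698 ± 245 (SD, n = 3), 403 ± 87.2 and 857 ± 139 in the sham, 3d and 7d groups. The log2 change in expression was -0.75 in 3d vs. sham, where sham replicate 3 overlapped the 3d arrays and the call was lost without sham replicate 1 or 3d replicate 3, and the arrays were apart in 7d vs. 3d, a 2.15-fold rise. The log2 change in 7d vs. sham was 0.35 (adjusted p = 0.412), but 0.046 without sham replicate 3, and it was called without sham replicate 1, at 0.59.

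Dtnb encodes beta-dystrobrevin, a member of the dystrophin-associated complex that is found in neurons. The level of its circRNA was 10.7%, 9.55% and 12.1% in the sham replicates, 5.46%, 5.29% and 7.91% in the 3d replicates, and 6.77%, 5.06% and 6.09% in the 7d replicates. The sham arrays were the 3 highest of the 9, and the 3d and 7d arrays overlapped. The mean level was 10.8% ± 1.27 (SD, n = 3) in the sham group, 6.22% ± 1.46 at 3 days and 5.97% ± 0.862 at 7 days. The log2 change in 7d vs. sham, which chose it, was -0.85 (standard error 0.17). In 3d vs. sham the level was lower by a log2 change of -0.81 (standard error 0.17), with the arrays apart, a description since the same sham arrays chose it. This was not called with all spike-in probes, at -0.56, or with loess and quantile normalization, at -0.04. Nor was it called with the processed signals of the scanner software or the deposited values, both at -0.48. The log2 change was -0.04 in 7d vs. 3d (adjusted p = 0.838).

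The scaled IP of the Dtnb circRNA was 559, 682 and 726 in the sham replicates, 367, 352 and 1064 in the 3d replicates, and 504, 466 and 472 in the 7d replicates. The 7d arrays lay below the sham arrays, and in the 3d group replicates 1 and 2 were lower still while replicate 3 was the highest of the 9. Its scaled Sup was 4685, 6454 and 5278 in the sham replicates, 6353, 6291 and 12387 in the 3d replicates, and 6946, 8743 and 7283 in the 7d replicates. The 7d arrays lay above the sham arrays here, and 3d replicate 3 was again the highest. Without 3d replicate 3 the log2 change of IP in 3d vs. sham was -0.86 and was called, against -0.34 (adjusted p = 0.900) with it. Over all arrays the log2 change of Sup was 0.54 in 3d vs. sham (adjusted p = 0.432) and 0.49 in 7d vs. sham. The former was 0.22 without 3d replicate 3, and it was called without sham replicate 2, 3d replicate 1 or 3d replicate 2, at 0.67, 0.70 and 0.71. Expression was 6128 ± 952 (SD, n = 3), 8938 ± 3909 and 8138 ± 940 in the sham, 3d and 7d groups. Its log2 change was 0.47 in 3d vs. sham (adjusted p = 0.807), 0.41 in 7d vs. sham and -0.06 in 7d vs. 3d (adjusted p = 0.930), and none was called. Without 3d replicate 1 or 2 or without sham replicate 2, the value in 3d vs. sham was 0.64, 0.65 and 0.59 and was called, but it was 0.14 without 3d replicate 3.

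Scn2a1, named Scn2a in RefSeq, encodes the pore-forming subunit of a voltage-gated sodium channel that carries action potentials in excitatory neurons. The level of its circRNA was 34.1%, 28.0% and 10.3% in the sham replicates, 11.7%, 12.5% and 8.93% in the 3d replicates, and 31.2%, 27.6% and 33.1% in the 7d replicates. The 3d and 7d arrays lay apart, and the sham group was split, with replicates 1 and 2 beside the 7d arrays and replicate 3 beside the 3d arrays. The mean level was 24.1% ± 12.4 (SD, n = 3) in the sham group, 11.03% ± 1.87 at 3 days and 30.6% ± 2.77 at 7 days. The log2 change in 7d vs. 3d, which chose it, was 1.48 (standard error 0.37). In 3d vs. sham the log2 change in level was -0.97 (standard error 0.37, adjusted p = 0.146), which was called at the unadjusted threshold only. It was -1.50 without sham replicate 3, and it was no longer called without sham replicate 1, at -0.63, without sham replicate 2, at -0.78, or without 3d replicate 3, at -0.83. Nor was it called with all spike-in probes, loess and quantile normalization, the test of the methods or a fit of the 6 arrays compared. From sham to 7d it was 0.51 (adjusted p = 0.320), but -0.02 without sham replicate 3, and it was called without sham replicate 1, at 0.85.

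The scaled Sup of the Scn2a1 circRNA was 554, 723 and 4311 in the sham replicates, 3124, 3386 and 10799.9 in the 3d replicates, and 536, 689 and 476 in the 7d replicates. The values fell into a low range, with the 7d arrays and sham replicates 1 and 2, and a high range, with the 3d arrays and sham replicate 3. Before any scaling the same order was seen, with a raw Sup of 361, 554 and 3542.5 in the sham replicates and of 1973, 2412 and 9054 in the 3d replicates. The scaled IP was 287, 281 and 493 in the sham replicates, 413, 484 and 1059 in the 3d replicates, and 243, 263 and 236 in the 7d replicates. The same arrays were high in IP as in Sup, but by less. The log2 change of Sup was 2.02 in 3d vs. sham (adjusted p = 0.205), -1.10 in 7d vs. sham (adjusted p = 0.546) and -3.11 in 7d vs. 3d. That of IP was 0.80 (adjusted p = 0.880), -0.47 (adjusted p = 0.271) and -1.27. Without sham replicate 3 the change of Sup in 7d vs. sham was -0.18, and without sham replicate 1 it was -1.66 and was called. That of IP in 3d vs. sham was 0.39 and not called without 3d replicate 3. A lower level of this circRNA in the 3d group thus went with a higher IP and a still higher Sup.

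Expression of the Scn2a1 circRNA was 841, 1004 and 4804 in the sham replicates, 3536, 3869 and 11859 in the 3d replicates, and 778, 952 and 712 in the 7d replicates. The coefficient of variation was 101% in the sham group, 73.4% at 3 days and 15.3% at 7 days, with replicate 3 far above the other replicates in the sham and in the 3d group. The log2 change was 1.77 in 3d vs. sham (standard error 0.45, adjusted p = 0.174), and -2.75 in 7d vs. 3d. The former was called in the fit of all 9 arrays but not in a fit of only the 6 arrays compared, with centring or by the test of the methods, and without sham replicate 3 it was 2.57. The log2 change in 7d vs. sham was -0.98 (adjusted p = 0.408), which was called with all arrays, but it was -0.19 and not called without sham replicate 3. It was also not called without 7d replicate 1, at -0.95, or without 7d replicate 3, at -0.89, and in all it was called in 9 of 24 alternatives.

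**Figure D2:**
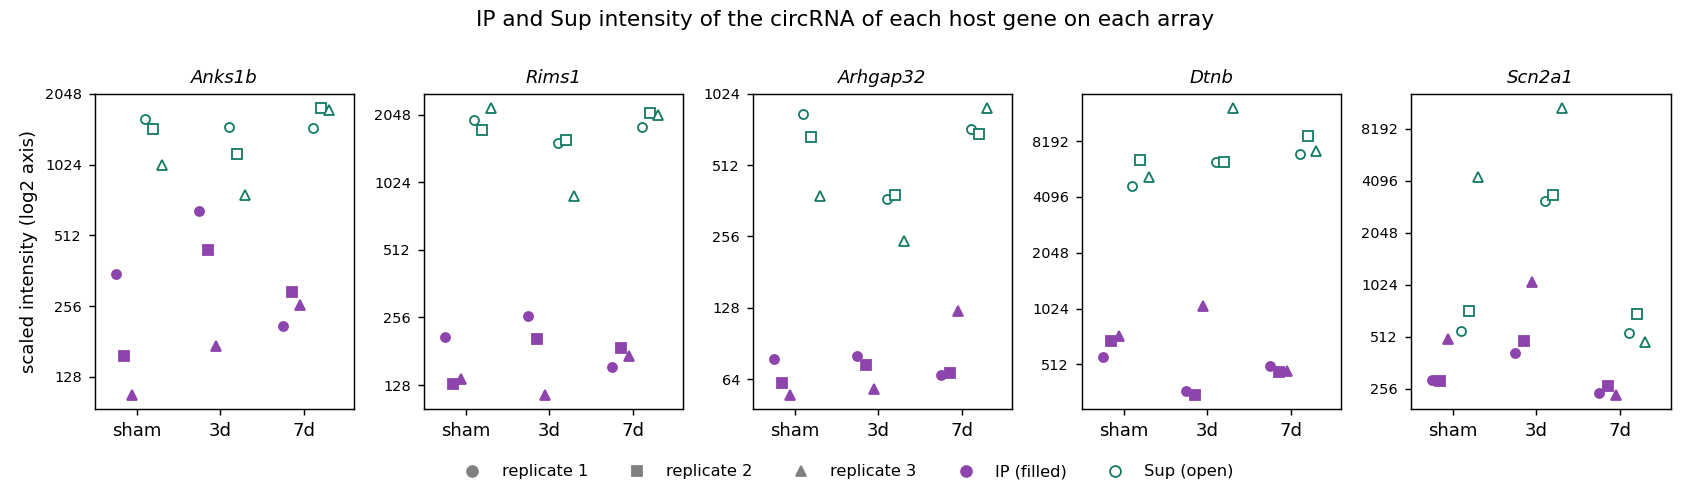
Scaled IP (filled) and Sup (open) intensity of each circRNA are plotted for the 9 arrays by group on a log2 axis, with a scale of its own in each panel and 1 point for each replicate. In the 3d group Sup is low for the Rims1 and Arhgap32 circRNAs and high for the Scn2a1 circRNA, and the array of sham replicate 3 lies with the 3d arrays for the Arhgap32 and Scn2a1 circRNAs.

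Set side by side by comparison, 5 of the 5 circRNAs were called in level in 3d vs. sham, 3 higher and 2 lower, beside 1.98% of all 12211 circRNAs tested. For 3 of them this comparison had chosen them, so that nothing is read from the count, and Dtnb and Scn2a1 were chosen by others. The arrays of the groups were apart for 4 of them, the exception being Scn2a1. In 7d vs. sham 1 of 5 was called in level, Dtnb, which this comparison had chosen, beside 0.442% of all. In 7d vs. 3d 4 of 5 were called, 3 lower and 1 higher, beside 3.91% of all, and this comparison had chosen Anks1b, Arhgap32 and Scn2a1. Nothing is read from these counts either. Of all circRNAs called in level, 53 were higher and 189 lower in 3d vs. sham. The counts were 51 higher and 3 lower in 7d vs. sham, and 465 higher and 13 lower in 7d vs. 3d. The median log2 change in level of all circRNAs tested was -0.03 in 3d vs. sham, 0.15 in 7d vs. sham and 0.19 in 7d vs. 3d. The median over the 5 was 0.76, 0.12 and -0.64 in the same order, and the choice of members bears on each of these values. The median of all in 7d vs. 3d depended on the scaling and was -0.05 with all spike-in probes. Without 7d replicate 3 the medians of all were 0.08 in 7d vs. sham and 0.11 in 7d vs. 3d, and 0.0901% and 2.96% of all were called. The shares of all called in level also moved with the processing: in 3d vs. sham they were 18.3% with the processed signals, 18.7% with the deposited values, 6.58% with an offset of 0 and 0.786% with centring. In the same order they were 2.17%, 2.17%, 7.39% and 0.237% in 7d vs. sham, and 25.5%, 26.1%, 10.6% and 0.958% in 7d vs. 3d.

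In expression 2 of 5 were called in 3d vs. sham, Scn2a1 higher and Arhgap32 lower, beside 2.64% of all circRNAs tested. Just 1 of 5 was called in 7d vs. sham, Scn2a1, beside 3.95% of all, and 0 of 5 were called without 7d replicate 3. The level that chose Arhgap32 in 3d vs. sham is calculated from the same IP and Sup, so nothing is read from the first count. For 7d vs. 3d 2 of 5 were called, Arhgap32 higher and Scn2a1 lower, beside 8.36% of all. This comparison had chosen both, and nothing is read from its count. Arhgap32 and Scn2a1 were also the circRNAs called in 3d vs. sham, each in the opposite direction. The 3d arrays enter both comparisons, so the opposite signs are no independent result. The median log2 change in expression of all circRNAs tested was 0.17, 0.23 and 0.07 in the 3 comparisons, and that of the 5 was -0.06, 0.33 and 0.38. Without 7d replicate 3 the median of all was -0.01 in 7d vs. sham and -0.17 in 7d vs. 3d, and the shares of all called in expression were 1.56%, 1.63% and 7.35% in the 3 comparisons.

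The level is calculated from IP and Sup, so nothing is read from a count in either channel that holds a circRNA which the comparison had chosen. In the IP channel 2 of 5 were called in 3d vs. sham, Anks1b and Scn2a1, both higher, beside 3.49% of all circRNAs tested. Of these, Anks1b had been chosen by this comparison. Without 7d replicate 3, and likewise without sham replicate 2, 0 of 5 were called, and the calls of Anks1b and Scn2a1 held in 9 and 15 of 24 alternatives. In 7d vs. sham 0 of 5 were called by limma, beside 7.03% of all, and of the 4 that this comparison had not chosen 0 had an unadjusted P below 0.05 by limma and 0 by the test of the methods. Anks1b was called without sham replicate 1, at 0.96 in place of 0.48. In 7d vs. 3d 1 of 5 was called, Scn2a1, which this comparison had chosen, beside 2.14% of all. In the Sup channel 3 of 5 were called in 3d vs. sham, Rims1 and Arhgap32 lower and Scn2a1 higher, beside 4.29% of all. Of these, Rims1 and Arhgap32 had been chosen by this comparison. In 7d vs. sham 0 of 5 were called by limma, beside 4.91% of all, and of the same 4 again 0 had an unadjusted P below 0.05 by either test, though Scn2a1 was called in 9 of 24 alternatives. Arhgap32 was called without sham replicate 1, at 0.60, and Dtnb without sham replicate 2, at 0.62, and 2 of 5 were called in each of these. In 7d vs. 3d 4 of 5 were called, beside 14.9% of all. Those called were Rims1, Anks1b and Arhgap32, which were higher, and Scn2a1, which was lower, and this comparison had chosen all but Rims1. The calls of Rims1 and Anks1b were lost without 7d replicate 2, 7d replicate 3 or 3d replicate 3, which left 2 of 5. Leaving out 7d replicate 3 also lowered the shares of all called in 7d vs. sham to 1.97% in IP and 2.15% in Sup, and that in 3d vs. sham to 2.52% in Sup.

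Across the 9 arrays the log2 levels of the Rims1 and Anks1b circRNAs varied together, with a Pearson correlation of 0.958. Those of the Arhgap32 and Scn2a1 circRNAs varied in opposite directions, at -0.859, and their log2 Sup intensities did so at -0.989. The Dtnb and Scn2a1 circRNAs, at -0.0304, had little in common in level. These are descriptions over arrays that share their groups, scans and spike-in scaling, and the differences between groups that chose the circRNAs enter them. Over the 9 arrays and 12098 other circRNA probes, the level of the Rims1 circRNA was most like that of the probe ASCRP4003297 (r = 0.992), which was also the most like it in expression (r = 0.987). For level the most like probes were ASCRP4001255 for Anks1b (r = 0.979), ASCRP4010648 for Arhgap32 (r = 0.958), ASCRP4010573 for Dtnb (r = 0.942) and ASCRP4005763 for Scn2a1 (r = 0.997). For expression they were ASCRP4011220 for Anks1b (r = 0.970), ASCRP4005674 for Arhgap32 (r = 0.974), ASCRP4008607 for Dtnb (r = 0.897) and ASCRP4006402 for Scn2a1 (r = 0.996). The files used here do not name these probes.

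The study lists circRNAs of 5 other genes with neuronal roles, which were also chosen by their level. They come from Calm3, a calmodulin gene, Itsn2, an endocytic scaffold, Sytl5, a vesicle trafficking protein, Adgrb3, a synaptic adhesion receptor, and Glra2, a glycine receptor subunit. The Glra2 circRNA was the one whose arrays fell as those of Scn2a1 did. Its level was 39.5%, 25.3% and 12.1% in the sham replicates, 16.0%, 14.6% and 9.92% in the 3d replicates, and 34.6%, 25.9% and 34.8% in the 7d replicates. Sham replicate 3 lay with the 3d arrays for this circRNA as well. The mean level of the Calm3 circRNA was 11.8% for sham, 18.7% at 3 days and 12.4% at 7 days, and it was chosen by 3d vs. sham. Its log2 change in 7d vs. 3d was -0.60, with the arrays apart. The Itsn2, Sytl5 and Adgrb3 circRNAs were dim in IP, with a raw intensity of 24 to 37.5, and were well above background in it on 4, 6 and 3 of the 9 arrays. With the background step used here, whose offset narrows changes of dim probes, none of these 3 was called in level, expression, IP or Sup in any comparison. In the comparisons that chose them, their log2 changes in level were -0.12, -0.064 and 0.13. The study lists each for a lower level there, at a fold change above 1.5.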

How the data were processed

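The intensity values deposited by the authors came from Agilent Feature Extraction (11.0.1.1 in the headers). The authors made their table of log2 values out of its processed signals, minus a spike-in constant for each channel of each array. These constants were recovered from 10 of the 102 spike-in probes. The 18 records hold the file of each array once for each channel, so that 9 arrays were used, with Cy5 as IP and Cy3 as Sup. The numbers of the record titles name the replicates; the descriptions of 7d replicates 2 and 3 and of sham replicate 3 carry other numbers.

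Here the background was removed from the median pixel intensity with normexp (limma 3.58.1, R 4.3.3) and an offset of 50, which narrows changes of dim probes. Spots marked as outliers were left out, and log2 values of each channel were shifted until their mean over the 10 spike-in probes was equal on all arrays. Of 14236 circRNA probes, 12211 had both channels well above background on 3 or more arrays and were tested, and 2025 were left out. Between 10718 and 12281 circRNA probes had both channels above it on a single array, and precision is limited by the number of arrays. Log2 values were fitted with limma (lmFit and eBayes, 2-sided) without a replicate block, and called at a fold change above 1.5 and P below 0.05. The fit was tested on simulated data. A probe was named where the fold change and P calculated by the methods of the study from the processed signals matched a listed circRNA within a relative tolerance of 0.001, and each name matched 1 probe. No other identity of the probes was used here, and coordinates and sequences were not used here.

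The members and lists were chosen with earlier results of these data known. Besides the members, the named circRNAs are the 5 other listed ones with a neuronal host gene, and the probe most like each member in log2 level and in log2 expression. Of 50 mRNA probes, 46 were named through RefSeq. The alternatives were other spike-in probes, centring, loess with quantile normalization, other background steps, the deposited values, other filters, tests and thresholds, blocks, outlier spots kept, and each replicate left out. Leaving out sham replicate 3 together with 3d replicate 3 was chosen after seeing the data.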

Additional observations from a re-analysis of the deposited data

Results flagged for a closer look

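The log2 change in level of the Rims1 circRNA from sham was 0.76 at 3 days and 0.12 at 7 days. The difference of these values, 7d vs. 3d, was -0.64, with all 3 arrays of the 7d group below all 3 of the 3d group. The circRNA was chosen by 3d vs. sham, and the 3d arrays that chose it also enter this difference, so it was not tested on arrays of its own and is a description. Of the 25 alternatives 16 moved the value, between -1.10 and -0.53. Groups of 3 arrays were not tested for single outlying arrays.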

How the results depend on the processing

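Of 25 alternatives (24 for comparisons with the sham group), 16 moved a given log2 change in level, since adjustment, filters, blocks, a fit of the 6 arrays compared and leaving out an array of the third group cannot. Over those 16, the log2 changes in level of the Rims1, Anks1b and Arhgap32 circRNAs in 3d vs. sham and in 7d vs. 3d, and those of Dtnb in 3d vs. sham and in 7d vs. sham and of Scn2a1 in 3d vs. sham and in 7d vs. 3d, kept their direction. The other scalings moved the median log2 change in level of all circRNAs in 3d vs. sham from -0.03 to 0.11 with all spike-in probes and to -0.32 with the processed signals, and in 7d vs. 3d from 0.19 to -0.05 and 0.36. Relative to the limits of the arrays, the raw IP of Arhgap32, between 42 and 69 over a background of 15.5 to 24.5, was the least above background among the 5. For each change named below the cause was not tested.

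The number called in level in 3d vs. sham was 3 in place of 5 with all spike-in probes and with loess and quantile normalization. For 7d vs. sham it was 0 in place of 1 after adjustment, and between 1 and 2 with arrays left out. The number called in expression in 3d vs. sham, 2 at first, was 0 by the methods' t-test, with only the 6 arrays compared and after adjustment, and between 1 and 4 with arrays left out. That in 7d vs. sham was 0 in place of 1 with all spike-in probes, centring, no background correction, an offset of 0, the processed signals, the deposited table, the filter on all 9 arrays, the methods' t-test, adjustment or outlier spots kept, and between 0 and 2 with arrays left out. That in 7d vs. 3d was 4 in place of 2 with loess and quantile normalization, the processed signals and the deposited table. It was 1 by the methods' t-test, and between 2 and 4 with arrays left out.

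Changes that were not called also turned sign. In level in 7d vs. sham, Rims1 had -0.015 with all spike-in probes, -0.15 with centring, -0.12 with the processed signals, -0.12 with the deposited table, and -0.041 to 0.33 with arrays left out. Anks1b had -0.10 with each of centring, the processed signals and the deposited table. Arhgap32 had -0.11 with all spike-in probes, -0.24 with centring, -0.092 with loess and quantile normalization and -0.13 without background correction. It had -0.26 with the processed signals and with the deposited table, and -0.15 to 0.21 with arrays left out. With arrays left out, Scn2a1 ranged from -0.018 to 0.85, and Dtnb in 7d vs. 3d from -0.15 to 0.14. For the latter it was -0.79 with loess and quantile normalization (called). In expression in 7d vs. sham, Rims1 had -0.0026 with all spike-in probes, -0.15 with centring, -0.12 with an offset of 0, and -0.062 to 0.10 with arrays left out. Dtnb in 7d vs. 3d had 0.12 with all spike-in probes, 0.70 with loess and quantile normalization (called) and 0.086 without background correction. It had 0.18 with the processed signals, 0.19 with the deposited table, and -0.23 to 0.28 with arrays left out.

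In IP in 7d vs. sham, Rims1 had -0.018 with all spike-in probes and -0.30 with centring, and Arhgap32 had -0.084 with centring. The IP of Rims1 in 7d vs. 3d ranged from -0.44 to 0.15 with arrays left out. That of Dtnb in 7d vs. 3d was 0.16 with loess and quantile normalization, 0.0082 without background correction and -0.38 to 0.42 with arrays left out. In Sup, Rims1 in 7d vs. sham had -0.12 with centring, -0.13 with an offset of 0 and -0.065 to 0.10 with arrays left out. Dtnb had -0.044 in 3d vs. sham with loess and quantile normalization. In 7d vs. 3d it had 0.17 with all spike-in probes, 1.03 with loess and quantile normalization (called) and 0.092 without background correction. It also had 0.20 with the processed signals, 0.22 with the deposited table and -0.22 to 0.27 with arrays left out.

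With the replicate number as a block, 5, 1 and 4 circRNAs were called in level and 2, 1 and 2 in expression, as without it, and the log2 change of Scn2a1 in Sup in 7d vs. sham, -1.10, was then called, as it was in 9 of 24 alternatives in all. Deviations of arrays with the same number correlated between -0.0127 and 0.456 in level, over 0.1 in 6 of 9 pairs, and between -0.596 and 0.560 in expression. Between sham and 3d they correlated at 0.400, 0.209 and 0.456 in level and at 0.560, 0.234 and 0.530 in expression. Between 3d and 7d the values were 0.128, 0.255 and 0.334 in level and -0.545, -0.141 and -0.408 in expression. Between sham and 7d they were 0.00396, -0.0127 and 0.0354 in level and -0.596, -0.129 and -0.438 in expression. An array was most like the same number of another group in 10 of 18 cases in level and in 4 of 18 in expression. The numbers, which differ between title and description for 3 arrays, were not taken as pairs. Against the sham array of its number, each 3d array had a lower level and a higher IP and Sup of the Scn2a1 circRNA. It likewise had a lower Sup of the Arhgap32 circRNA and a higher IP of the Anks1b circRNA. The sham and 3d arrays overlapped in each of these values. Since the numbers were not taken as pairs, nothing is read from this order. The slide as a block could be fitted for 7d vs. 3d only, where it gave the values of the fit without it, since the sham arrays have a slide of their own.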
